A study of Mus musculus with 18 samples.

Results

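Thymocyte transcripts were followed on arrays of sorted thymic dendritic cells (DCs). The 33 genes were a list of developing T cell genes: the recombination machinery, the T cell receptor chains, the coreceptors, signalling proteins, transcription factors and surface proteins. For each gene the probeset that the array annotation assigns to exactly 1 symbol was used, and each of the genes found had only 1 such probeset. This gave 31 measured genes of 19938 on the array. Lck and Tcf7 had no such probeset and were dropped. No gene was filtered by level, so all 31 enter every count.

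The arrays came from XCR1+ DCs of the thymus of untreated B6 mice, 18 arrays in 6 groups of 3. CTRL were wild-type mice in specific pathogen free (SPF) housing, Ifnar1-KO were mice without the type I interferon receptor gene Ifnar1 in the same housing, and GF were germ-free wild-type mice. In each background, CCR7- cells carried CD117 (the immature stage) and CCR7+ cells did not (the mature stage). Cells of all groups were sorted as CD11c+, MHCII+, XCR1+ and CD8a+ and as lacking CD11b and CD172a. No label ties an array to a mouse, so arrays that share a group may or may not be separate animals, and the p-values reflect a spread between arrays that may be technical. Replicates are named by the number in the array codes.

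Developing T cells cut and join their antigen receptor genes with the RAG1 and RAG2 recombinase, and DNTT adds bases at the joints. The receptor then signals through the CD3 chains and CD247, with help from CD4 or CD8 and the kinases LCK and ZAP70. XCR1+ DCs carry CD8 too, as a pair of CD8A chains without CD8B, and in the thymus these DCs lie among dense thymocytes and take up dying cells.

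The stretches of 250 bases before the transcription start are shown for 5 genes. Rag1, Dntt, Cd3d and Cd3g had among the largest excesses on 1 array that stood apart, described below, and Cd8a had none there. Sequences are 5′ to 3′ on the gene's own strand, from RefSeq on GRCm38.p6. Capitals mark CAGGTG on either strand (CACCTG when read on the other), a core site of E proteins, factors needed early in T cell development.
Rag1: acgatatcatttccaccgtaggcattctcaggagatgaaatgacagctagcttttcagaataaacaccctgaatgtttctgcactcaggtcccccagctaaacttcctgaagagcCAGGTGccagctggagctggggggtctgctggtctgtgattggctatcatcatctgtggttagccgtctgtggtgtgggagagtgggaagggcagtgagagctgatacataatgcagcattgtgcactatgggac
Dntt: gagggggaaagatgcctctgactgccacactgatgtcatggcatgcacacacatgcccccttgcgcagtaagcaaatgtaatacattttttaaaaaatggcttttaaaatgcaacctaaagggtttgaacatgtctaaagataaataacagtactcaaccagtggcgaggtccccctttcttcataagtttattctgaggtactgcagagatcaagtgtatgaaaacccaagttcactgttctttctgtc
Cd3d: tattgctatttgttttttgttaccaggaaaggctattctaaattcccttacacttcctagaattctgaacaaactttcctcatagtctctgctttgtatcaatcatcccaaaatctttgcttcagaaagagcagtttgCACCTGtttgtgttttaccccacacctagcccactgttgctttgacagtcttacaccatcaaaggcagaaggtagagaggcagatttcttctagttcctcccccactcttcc
Cd3g: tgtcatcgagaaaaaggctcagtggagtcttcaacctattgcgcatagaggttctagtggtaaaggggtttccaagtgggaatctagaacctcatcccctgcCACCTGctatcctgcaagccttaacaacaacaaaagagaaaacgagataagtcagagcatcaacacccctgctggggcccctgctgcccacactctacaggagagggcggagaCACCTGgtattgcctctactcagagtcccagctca
Cd8a: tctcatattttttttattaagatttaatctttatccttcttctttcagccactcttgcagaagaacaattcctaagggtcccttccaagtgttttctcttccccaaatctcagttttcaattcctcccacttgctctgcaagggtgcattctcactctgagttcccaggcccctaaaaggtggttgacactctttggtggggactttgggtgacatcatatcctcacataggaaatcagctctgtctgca
The stretches lie at chr2:101649533-101649782 (minus strand), chr19:41029025-41029274 (plus), chr9:44981536-44981785 (plus), chr9:44980432-44980681 (minus) and chr6:71373177-71373426 (plus). Cd3d and Cd3g are neighbours read in opposite directions, with start sites 1355 bases apart. The table held such windows for 21 of the 31 genes, and 16 of them had only 1 window. In those 16, CAGGTG was found for 6 genes (Cd247, Rag1, Cd3g, Cd3d, Ccr9 and Cd5), against 17.1% of 22862 genes with 1 window.

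Other motifs were searched in the same stretches, on both strands. The general E-box CANNTG, which includes CAGGTG, was found for 13 of the 16 against 66.3% of all genes. The TCF1 and LEF1 core CTTTGA was found for 3 against 14.3%, the RUNX core TGTGGT for 2 against 14.3%, and the GATA core AGATAA for 2 against 10.4%. The ETS core AGGAAG was found for 7 against 29.1%, and the longer ETS site CCGGAAG for 0 against 7.09%. These are matches of letters and do not show binding.

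Genes of the sort were read first, on a log2 intensity scale that holds for all levels below. Ccr7 read 7.25 to 9.09 on CCR7- and 11.79 to 12.09 on CCR7+ arrays, and Kit, which encodes CD117, 8.54 to 9.30 and 5.31 to 7.04. Although both stages were gated as XCR1+ and CD11c+, Xcr1 went from 11.28 to 11.56 on CCR7- arrays to 4.89 to 8.36 on CCR7+ arrays, and Itgax, which encodes CD11c, from 9.66 to 10.19 to 6.44 to 8.17. Sirpa, which encodes the excluded CD172a, was called higher at the CCR7+ stage in CTRL (0.89 ± 0.28) and Ifnar1-KO (1.02 ± 0.28) and had 0.77 ± 0.28 in GF. Itgam (CD11b) stayed at 3.67 to 4.01. The mean over 11 XCR1+ DC genes was 10.02 to 10.25 on CCR7- arrays and 7.03 to 8.34 on CCR7+ arrays. The list did not move as one: 7 were called lower in each background, and Irf8, Zbtb46 and Flt3 were called in none. Batf3 was called higher in CTRL, Ifnar1-KO and GF (0.95, 0.71 and 0.60). Ifnar1 itself read 8.07, 7.27 and 7.66 in immature cells of Ifnar1-KO mice, where CTRL cells had 8.06 to 8.09. The mature cells had 7.61, 6.07 and 6.96 in Ifnar1-KO and 7.61 to 7.82 in CTRL mice. Neither difference passed in limma (adjusted p 0.687 and 1.0). Where the probeset lies relative to the disrupted part is not known here, and it does not check the genotype. Means over marker lists of other cells had these ranges over all 18 arrays: 3.94 to 4.34 for 6 B cell genes, 4.07 to 4.34 for 8 macrophage genes, 3.40 to 4.03 for 6 natural killer (NK) cell genes and 4.05 to 4.54 for 3 erythroid genes. The mean over 8 thymic epithelium genes was 4.74 to 5.16, over 7 CD172a+ DC genes 4.03 to 4.33 and over 6 plasmacytoid DC genes 6.15 to 6.77. Some moved with the stage: in CTRL the erythroid mean was 4.05 to 4.18 on CCR7- and 4.40 to 4.44 on CCR7+ arrays, and the thymic epithelium mean 4.74 to 4.80 and 4.92 to 5.16. Krt8 (1.03 ± 0.35), an epithelial keratin, and Alas2 (0.46 ± 0.15), an erythroid heme enzyme, were called higher there and Epcam (-1.11 ± 0.20) lower. The part of these shifts in the results was not tested.

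One array, Ifnar1-KO CCR7+ replicate 2, stood apart. It is called the divergent array here, and results are given with and without it. Its array code and that of GF CCR7+ replicate 3 carry an extra number, whose meaning is not given. On it the mean over the 31 genes was 7.51, while the other 17 arrays lay between 4.80 and 6.12. It was the highest of all 18 arrays for 26 of the 31 genes, against 9.40% of all genes on the array. The 26 leave out Cd247, Cd8a, Lef1, Bcl11b and Skap1. On the same array Xcr1, the chemokine receptor that names these DCs, read 4.89 against 7.37 and 8.36 on the other Ifnar1-KO CCR7+ arrays. Itgax read 6.83 against 8.17 and 8.11, but CTRL CCR7+ arrays had 6.44 to 7.13 and GF ones 6.94 to 8.09. Not all XCR1+ DC genes were low there: Irf8 read 10.59 against 10.77 and 10.37, and Batf3 9.21 against 9.62 and 9.31. The NK cell mean was 4.03 against 3.52 and 3.59, mostly through Gzma (5.43 against 3.38 and 3.31). The other NK cell genes differed less, such as Ncr1 (3.64 against 3.41 and 3.49) and Prf1 (4.54 against 4.47 and 4.46). Beyond the values given without this array, the part of its DC gene levels in the results was not tested. In sorted bulk RNA, more cells of a type and more RNA per cell cannot be told apart.

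**Figure D1:**
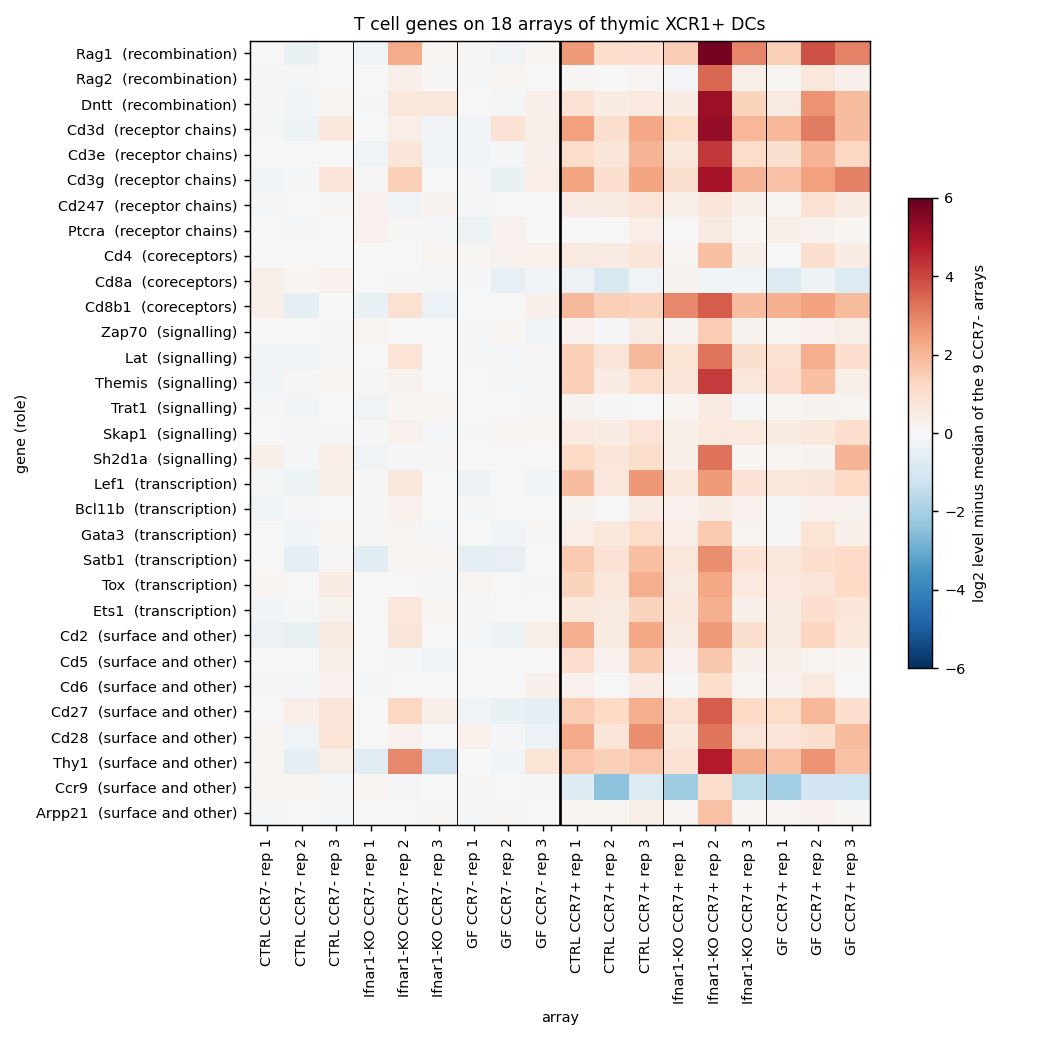
Colour gives the log2 level of each of the 31 genes (rows, with their role) on each of the 18 arrays (columns), minus the median of the 9 CCR7- arrays for that gene; the thick line divides CCR7- from CCR7+ arrays. Most genes are higher on CCR7+ arrays, highest on Ifnar1-KO CCR7+ replicate 2, while Ccr9 and Cd8a are lower there on most arrays.

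The first comparison asked how these transcripts differ between the mature and the immature stage. In all 3 backgrounds the same 29 of 31 genes had a positive difference, CCR7+ minus CCR7-, and Cd8a and Ccr9 a negative one. The median log2 change of the 31 was 0.82 in CTRL, 1.12 in Ifnar1-KO and 0.77 in GF, beside 0.07, 0.00 and 0.03 over all genes. Fewer passed the test, which was limma with a Benjamini-Hochberg adjusted p under 0.05 over all genes. In CTRL 8 rose and Cd8a fell, where 12.6% of all genes rose and 13.6% fell. In Ifnar1-KO 5 rose and 0 fell (9.42% and 10.8% of all genes), and in GF 6 rose and 0 fell (9.53% and 11.8%). At an unadjusted p under 0.05 there were 18, 22 and 11 genes in CTRL, Ifnar1-KO and GF, where 37.6%, 28.7% and 30.8% of all genes passed, so the GF count was near the background.

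Cd8b1 and Skap1 rose in all 3 backgrounds, Rag1, Cd247 and Satb1 in 2, and Lat, Lef1, Tox, Cd2, Cd3d, Cd3g and Cd27 in 1. For 7 of the 31 every CCR7+ array lay above every CCR7- array (Cd3d, Cd8b1, Themis, Skap1, Satb1, Tox and Arpp21), and for 0 below. Over all genes those shares were 7.00% above and 8.28% below. CCR7- and CCR7+ arrays of one number varied together in CTRL and Ifnar1-KO. In either direction 26.2% of all genes were called in CTRL, 20.2% in Ifnar1-KO and 21.3% in GF. With the replicate block that pairs the arrays, 17 of the 31 were called in CTRL (27.9% of all genes) and 13 in Ifnar1-KO (21.8%). Without Ifnar1-KO CCR7+ replicate 2, whose spread enters every test, 21 of the 31 were called in CTRL (27.1% of all genes), 2 in Ifnar1-KO (Cd8b1 up and Ccr9 down; 19.1%) and 14 in GF (22.1%).

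**Figure D2:**
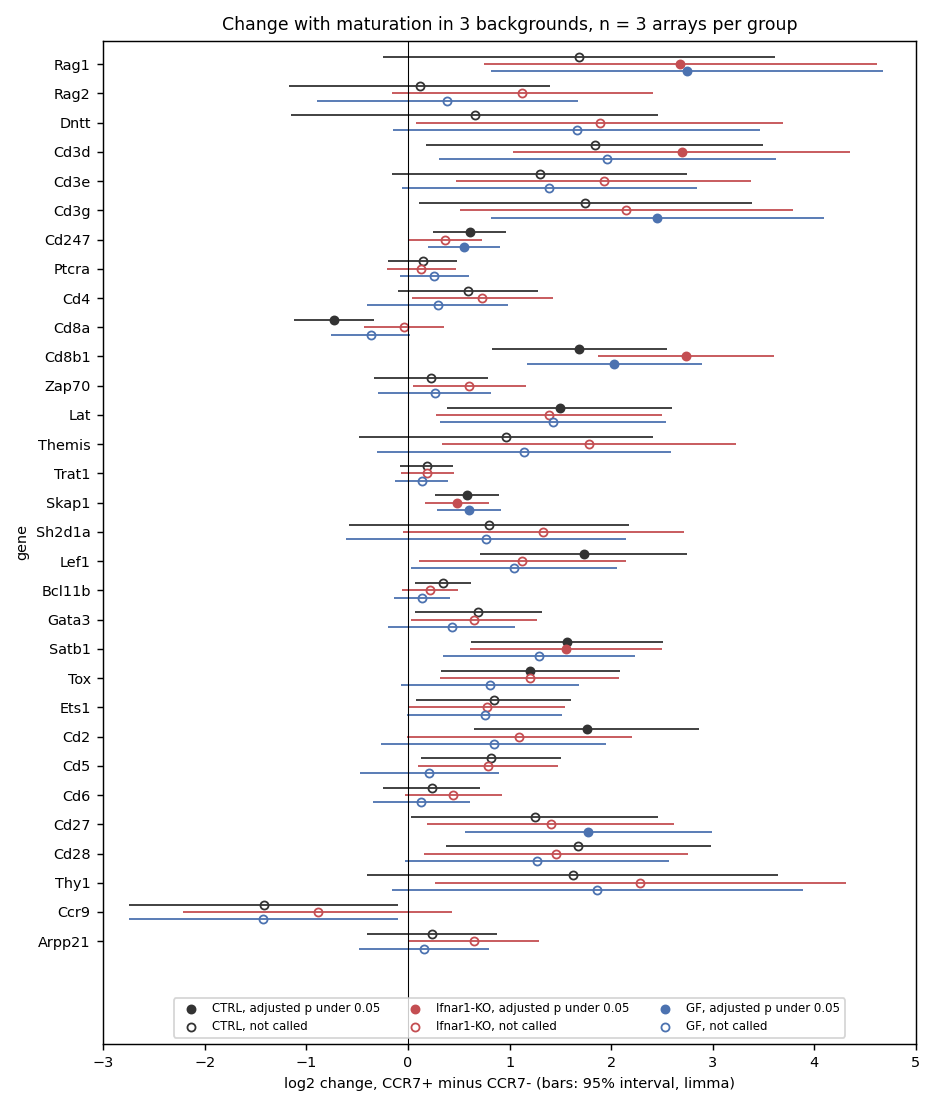
Points give the log2 change, CCR7+ minus CCR7-, of each gene in CTRL, Ifnar1-KO and GF mice (3 arrays per group), and bars its 95% interval from limma; filled points passed an adjusted p of 0.05. Cd8b1 and Skap1 are filled in all 3 backgrounds, and only Cd8a and Ccr9 lie below 0.

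Among the recombination genes, Rag1 was the one that passed. It read 4.56, 4.17 and 4.51 on CTRL CCR7-, 4.34, 6.78 and 4.67 on Ifnar1-KO CCR7- and 4.63, 4.40 and 4.69 on GF CCR7- arrays. The mature cells gave 7.09, 5.63 and 5.57 in CTRL, 6.02, 10.31 and 7.51 in Ifnar1-KO, and 6.0, 8.40 and 7.55 in GF. One CCR7- array, Ifnar1-KO replicate 2, lay inside the CCR7+ range. The change was 2.68 ± 0.90 (± SE, n = 3 arrays per group in all such values) in Ifnar1-KO (adjusted p 0.0491) and 2.74 ± 0.90 in GF (0.0421), while CTRL had 1.68 ± 0.90 (0.190). With the replicate block Rag1 was also called in CTRL (adjusted p 0.0380). Without the divergent array its change in Ifnar1-KO was 1.5 (adjusted p 0.228). The Ifnar1-KO call was lost in 17 and the GF call in 13 of 28 alternative fits.

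Dntt and Rag2 did not pass in any background. Dntt read 4.69, 4.27 and 4.41 on CTRL CCR7+ arrays, 4.26, 8.94 and 5.15 in Ifnar1-KO and 4.35, 6.5 and 5.73 in GF, against 3.65 to 4.50 on CCR7- arrays. Rag2, the gene beside Rag1, read 3.22 to 3.98 on 8 CCR7+ arrays and 6.76 on Ifnar1-KO replicate 2, with 3.17 to 3.59 on CCR7- arrays. Its change of 1.12 ± 0.60 in Ifnar1-KO (adjusted p 0.250) thus came from 1 array. The file holds no detection call, so low readings such as these may be background, and changes that start there may be lower bounds.

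The 3 CD3 chains, which carry the receptor's signal into the cell, were higher on CCR7+ arrays by 1.30 to 2.70 in every background. Cd3d read 4.93, 4.71 and 5.61 on CTRL CCR7-, 4.99, 5.41 and 4.84 on Ifnar1-KO CCR7- and 4.85, 5.84 and 5.32 on GF CCR7- arrays. On CCR7+ arrays it read 7.45, 5.97 and 7.33 in CTRL, 6.11, 10.25 and 6.98 in Ifnar1-KO, and 6.96, 8.11 and 6.83 in GF. The 2 stages did not overlap, with 5.84 and 5.97 as the nearest readings. Cd3d passed in Ifnar1-KO (2.70 ± 0.78, adjusted p 0.0214) but not in CTRL (1.84 ± 0.78, 0.0967) or GF (1.96 ± 0.78, 0.0927). With the divergent array left out, the Ifnar1-KO value was 1.46 (adjusted p 0.0520), while CTRL (0.00593) and GF (0.00425) were called. The block called Cd3d in CTRL (0.0467).

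Cd3g read 4.45, 4.46 and 5.37 on CTRL CCR7-, 4.66, 6.03 and 4.60 on Ifnar1-KO CCR7- and 4.48, 4.21 and 5.0 on GF CCR7- arrays. Its CCR7+ readings were 6.96, 5.61 and 6.95 in CTRL, 5.55, 9.53 and 6.66 in Ifnar1-KO and 6.37, 7.05 and 7.64 in GF. It passed in GF alone (2.46 ± 0.77, adjusted p 0.0322), and with the block also in CTRL (0.0186) and Ifnar1-KO (0.00789). Cd3e had 1.30 ± 0.68, 1.93 ± 0.68 and 1.39 ± 0.68 and passed in none, and with the block in Ifnar1-KO (0.0183). Its CCR7+ readings were 6.78, 6.42 and 7.73 in CTRL, 6.36, 9.90 and 6.75 in Ifnar1-KO and 6.61, 7.70 and 6.93 in GF, against 5.41 to 6.40 on CCR7- arrays.

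Cd247, the zeta chain of the receptor, which NK cells use too, changed less but with a smaller spread. It read 4.89, 4.99 and 5.06 on CTRL CCR7-, 5.25, 4.78 and 5.21 on Ifnar1-KO CCR7- and 4.91, 4.97 and 4.99 on GF CCR7- arrays. At the CCR7+ stage it read 5.46, 5.53 and 5.76 in CTRL, 5.32, 5.70 and 5.31 in Ifnar1-KO and 5.16, 5.88 and 5.48 in GF. It rose by 0.61 ± 0.17 in CTRL (adjusted p 0.0137) and 0.55 ± 0.17 in GF (0.0270), and had 0.37 ± 0.17 in Ifnar1-KO (0.161). Ptcra, the surrogate alpha chain of early thymocytes, had 0.13 to 0.26 and did not pass in any background.

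The coreceptors split. Cd8b1, the CD8 beta chain, read 6.20, 5.33 and 5.90 on CTRL CCR7-, 5.51, 6.81 and 5.53 on Ifnar1-KO CCR7- and 5.91, 5.90 and 6.20 on GF CCR7- arrays. In CCR7+ cells it read 7.85, 7.32 and 7.30 in CTRL, 8.80, 9.52 and 7.75 in Ifnar1-KO and 8.02, 8.30 and 7.78 in GF. All CCR7+ readings lay above all CCR7- readings. The rise was 1.69 ± 0.40 in CTRL (adjusted p 0.00568), 2.74 ± 0.40 in Ifnar1-KO (0.000130) and 2.03 ± 0.40 in GF (0.00163). Without Ifnar1-KO CCR7+ replicate 2 it was 2.32 in Ifnar1-KO (adjusted p 0.000600).

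Cd8a, the CD8 alpha chain on which the cells were sorted, read above 9 on all 18 arrays. It read 11.15, 10.95 and 11.11 on CTRL CCR7-, 10.84, 10.89 and 10.72 on Ifnar1-KO CCR7- and 10.71, 10.35 and 10.63 on GF CCR7- arrays. The mature cells gave 10.48, 9.91 and 10.64 in CTRL, 11.04, 10.69 and 10.60 in Ifnar1-KO and 10.03, 10.53 and 10.02 in GF. It fell by 0.73 on the log2 scale in CTRL (SE 0.18, adjusted p 0.00790) and had -0.04 ± 0.18 in Ifnar1-KO (0.935) and -0.37 ± 0.18 in GF (0.193). The stages did not overlap in CTRL but did in both other backgrounds. Cd4 read 4.60 to 4.88 on CCR7- arrays and 4.63 to 5.6 on 8 CCR7+ arrays, with 6.46 on Ifnar1-KO CCR7+ replicate 2, and did not pass.

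**Figure D3:**
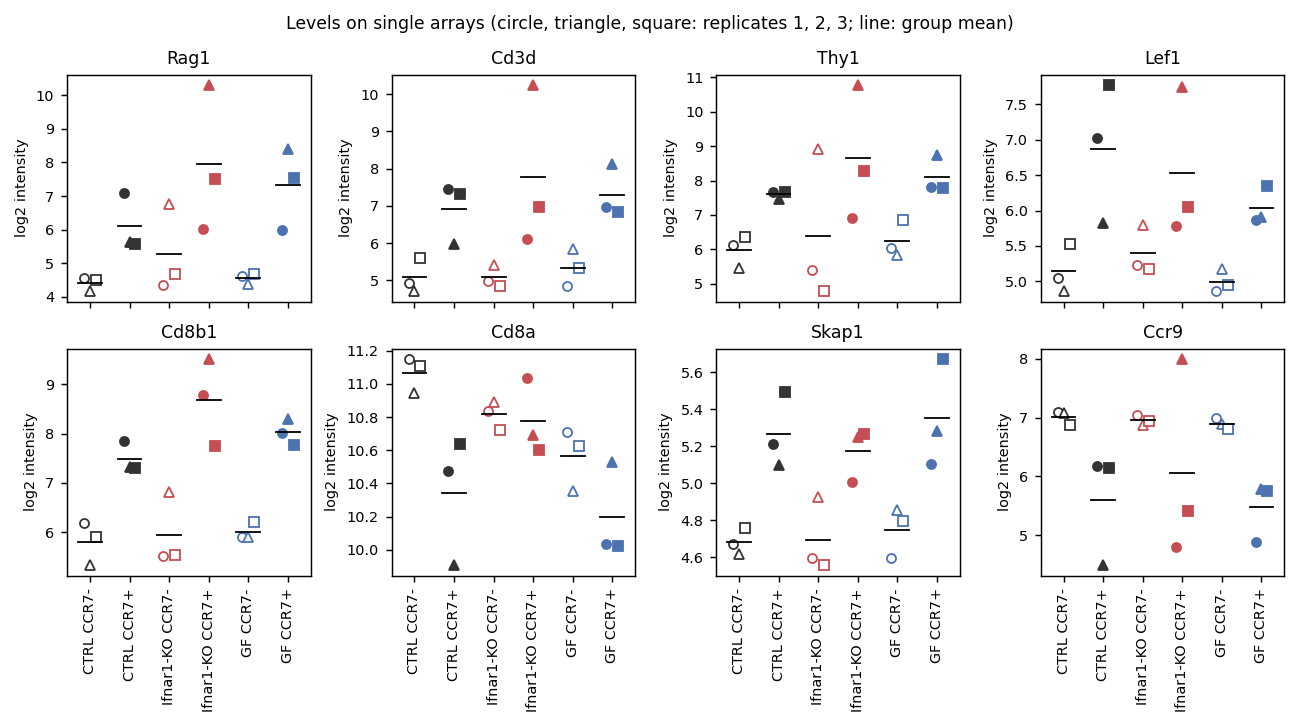
Log2 intensity of 8 genes on single arrays, by group; open symbols are CCR7- and filled ones CCR7+ arrays, circle, triangle and square are replicates 1, 2 and 3, and lines are group means. Cd8b1 and Skap1 separate by stage on all arrays, Cd8a moves little, and for Ccr9 the Ifnar1-KO CCR7+ replicate 2 array at 8.0 lies above every CCR7- array while the other 8 CCR7+ arrays lie below.

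Of 6 signalling genes, 2 passed. Lat, the membrane scaffold that ZAP70 phosphorylates, read 4.98, 4.92 and 5.22 on CTRL CCR7-, 5.15, 5.95 and 5.18 on Ifnar1-KO CCR7- and 5.03, 5.02 and 5.21 on GF CCR7- arrays. Its CCR7+ readings were 6.57, 5.91 and 7.11 in CTRL, 5.99, 8.36 and 6.09 in Ifnar1-KO and 6.08, 7.32 and 6.15 in GF. It passed in CTRL (1.49 ± 0.52, adjusted p 0.0470), and its 1.38 ± 0.52 in Ifnar1-KO (0.0796) did so with the block (0.0234). In CTRL the call was lost in 15 of 28 alternative fits, with adjusted p up to 0.958.

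Skap1, a signalling adaptor that links the T cell receptor to integrins, read 4.68, 4.62 and 4.76 on CTRL CCR7-, 4.60, 4.93 and 4.56 on Ifnar1-KO CCR7- and 4.60, 4.85 and 4.80 on GF CCR7- arrays. On CCR7+ arrays it read 5.21, 5.10 and 5.5 in CTRL, 5.01, 5.25 and 5.27 in Ifnar1-KO and 5.11, 5.29 and 5.67 in GF. Its rise was small in every background: 0.58 ± 0.15 (adjusted p 0.00808), 0.48 ± 0.15 (0.0303) and 0.60 ± 0.15 (0.00724). With the divergent array left out, the Ifnar1-KO value was 0.44 (0.0916). Zap70, Themis, Trat1 and Sh2d1a did not pass in any background. The kinase gene Zap70 read 5.47 on the divergent array and 3.85 to 4.46 on the other 8 CCR7+ arrays. CCR7- arrays had 3.80 to 4.12, and most of the 8 lay above that range, with 3.85 and 4.08 inside it. Themis, needed for thymocyte selection, had mature-stage readings of 5.23, 4.23 and 4.86 in CTRL, 4.50, 8.0 and 4.48 in Ifnar1-KO and 4.79, 5.58 and 4.13 in GF cells, against 3.62 to 3.99 on CCR7- arrays. Sh2d1a, the SLAM receptor adaptor SAP, read 7.35 on Ifnar1-KO CCR7+ replicate 2 and 6.12 on GF CCR7+ replicate 3, and 4.17 to 5.27 on the other CCR7+ arrays.

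All 6 transcription factors had positive changes in all 3 backgrounds, and 3 passed in CTRL. Lef1, a Wnt pathway factor of thymocytes, read 5.04, 4.86 and 5.52 on CTRL CCR7-, 5.23, 5.80 and 5.17 on Ifnar1-KO CCR7- and 4.87, 5.18 and 4.95 on GF CCR7- arrays. At the CCR7+ stage it read 7.02, 5.83 and 7.77 in CTRL, 5.79, 7.74 and 6.04 in Ifnar1-KO and 5.87, 5.90 and 6.35 in GF. It passed in CTRL (1.73 ± 0.48, adjusted p 0.0137). The Ifnar1-KO change of 1.13 ± 0.48 (0.125) passed with the block (0.0270), and GF had 1.04 ± 0.48 (0.15).

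Satb1, a chromatin organiser of thymocytes, did not overlap between stages. It read 6.25, 5.65 and 6.33 on CTRL CCR7-, 5.63, 6.42 and 6.36 on Ifnar1-KO CCR7- and 5.71, 5.75 and 6.24 on GF CCR7- arrays. In CCR7+ cells it read 7.80, 7.09 and 8.04 in CTRL, 6.94, 9.05 and 7.09 in Ifnar1-KO and 6.94, 7.26 and 7.37 in GF. It rose by 1.57 ± 0.44 in CTRL (adjusted p 0.0162) and 1.56 ± 0.44 in Ifnar1-KO (0.0201), with 1.29 ± 0.44 in GF (0.0515). Without Ifnar1-KO CCR7+ replicate 2 the Ifnar1-KO value was 0.88 (0.0591) and GF was called (0.00275).

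Tox, a factor of T lineage development, read 4.79, 4.67 and 5.15 on CTRL CCR7-, 4.66, 4.68 and 4.57 on Ifnar1-KO CCR7- and 4.86, 4.70 and 4.63 on GF CCR7- arrays. Its CCR7+ readings were 6.02, 5.35 and 6.85 in CTRL, 5.22, 7.01 and 5.26 in Ifnar1-KO and 5.25, 5.46 and 5.89 in GF. It passed in CTRL (1.21 ± 0.41, adjusted p 0.0420), a call that 13 of 28 alternative fits lost, with adjusted p up to 0.646. With the block Tox also passed in Ifnar1-KO (0.0359). Ets1 had 0.76 to 0.84 in the 3 backgrounds and was called with the block in CTRL (0.0185) and Ifnar1-KO (0.0305). Bcl11b, a T lineage commitment factor, had 0.14 to 0.35 and was called with the block in CTRL (0.0269), and Gata3 had 0.43 to 0.69 and was not.

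Among 8 surface and other genes, Cd2 passed in CTRL and Cd27 in GF. Cd2, an adhesion receptor, read 4.45, 4.36 and 5.33 on CTRL CCR7-, 4.80, 5.54 and 4.80 on Ifnar1-KO CCR7- and 4.68, 4.48 and 5.15 on GF CCR7- arrays. The mature cells gave 6.95, 5.34 and 7.12 in CTRL, 5.31, 7.37 and 5.75 in Ifnar1-KO and 5.34, 6.07 and 5.43 in GF. The change was 1.76 ± 0.52 in CTRL (adjusted p 0.0204), and CTRL CCR7+ replicate 2 lay just above the highest CTRL CCR7- reading.

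Cd27, a costimulatory receptor, read 4.33, 4.73 and 5.09 on CTRL CCR7-, 4.30, 5.58 and 4.62 on Ifnar1-KO CCR7- and 4.12, 3.94 and 3.73 on GF CCR7- arrays. Its CCR7+ readings were 5.85, 5.52 and 6.53 in CTRL, 5.22, 7.97 and 5.51 in Ifnar1-KO and 5.46, 6.33 and 5.34 in GF. It rose by 1.78 ± 0.57 in GF (adjusted p 0.0366). The block called it in CTRL (0.0174) and Ifnar1-KO (0.0115) as well. Thy1, the pan-T surface protein, had large changes with large errors: 1.62 ± 0.95, 2.29 ± 0.95 and 1.86 ± 0.95. Its Ifnar1-KO readings were 5.41, 8.93 and 4.78 on CCR7- and 6.92, 10.78 and 8.28 on CCR7+ arrays, with replicate 2 high at both stages. Thy1 passed in no background without the block, with all arrays, and with it in CTRL (0.0212) and Ifnar1-KO (0.00457).

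Cd28, the main costimulatory receptor of T cells, read 6.68, 5.13 and 7.19 on CTRL CCR7+, 5.03, 7.58 and 5.14 on Ifnar1-KO CCR7+ and 5.19, 5.35 and 6.31 on GF CCR7+ arrays, against 4.06 to 5.23 on CCR7- arrays. It had 1.27 to 1.68 and passed with the block in CTRL (0.0302). Cd5, an inhibitory receptor, had 0.21 to 0.82, Cd6 0.13 to 0.45 and the thymocyte phosphoprotein gene Arpp21 0.15 to 0.65. None of these passed. Arpp21 read 3.81 to 3.96 on CCR7- and 3.96 to 4.21 on 8 CCR7+ arrays, so its lack of overlap rests on differences of little size.

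Ccr9, the receptor for the thymic chemokine CCL25, moved the other way. It read 7.09, 7.08 and 6.88 on CTRL CCR7-, 7.05, 6.87 and 6.94 on Ifnar1-KO CCR7- and 7.0, 6.90 and 6.80 on GF CCR7- arrays. On CCR7+ arrays it read 6.18, 4.49 and 6.13 in CTRL, 4.79, 8.0 and 5.40 in Ifnar1-KO and 4.89, 5.78 and 5.75 in GF. Except for Ifnar1-KO replicate 2 all CCR7+ readings lay below all CCR7- readings. With all arrays Ccr9 did not pass: -1.42 ± 0.62 in CTRL (adjusted p 0.108), -0.89 ± 0.62 in Ifnar1-KO (0.416) and -1.42 ± 0.62 in GF (0.129). Without that array it was called lower in all 3, with -1.42 (0.00952), -1.86 (0.00432) and -1.42 (0.0106).

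The second question was which of these genes vary together between arrays of one group. A thymocyte index was formed for each array as the mean of 10 other T cell genes that are not among the 31 (Camk4, Prkcq, Ubash3a, Txk, Tespa1, Cd96, Sit1, Aqp11, Endou and Rasgrp1). It ranged over 4.21 to 4.34, 4.25 to 4.60 and 4.25 to 4.27 on CCR7- arrays of CTRL, Ifnar1-KO and GF. On CCR7+ arrays it ranged over 4.53 to 4.91, 4.55 to 5.70 and 4.58 to 4.75. Its genes were chosen with earlier results of these data known, so slopes on it are not independent of those results. For each gene the slope on this index was then estimated beside the 6 group means, in log2 units of the gene per log2 unit of the index, so that it uses only differences within groups.

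All 31 slopes were positive, and 23 passed limma's test over 19928 genes, where 0.537% of all genes passed with a positive and 0.482% with a negative slope. The median slope was 1.82 beside 0.05 over all genes. These calls rest on Ifnar1-KO CCR7+ replicate 2, which has the highest index by far (5.70). Without it 0 of the 31 and 0 of all genes passed, and the smallest adjusted p among the 31 was 0.266. All 31 slopes were still positive then, with a median of 1.79 beside 0.11 over all genes, and 18 had an unadjusted p under 0.05, where 12.0% of all genes did. With the replicate block 0 passed (smallest adjusted p 0.0895) and 28 were positive. The 3 negative ones were Cd8b1 (-0.13), Skap1 (-0.21) and Thy1 (-0.95).

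**Figure D4:**
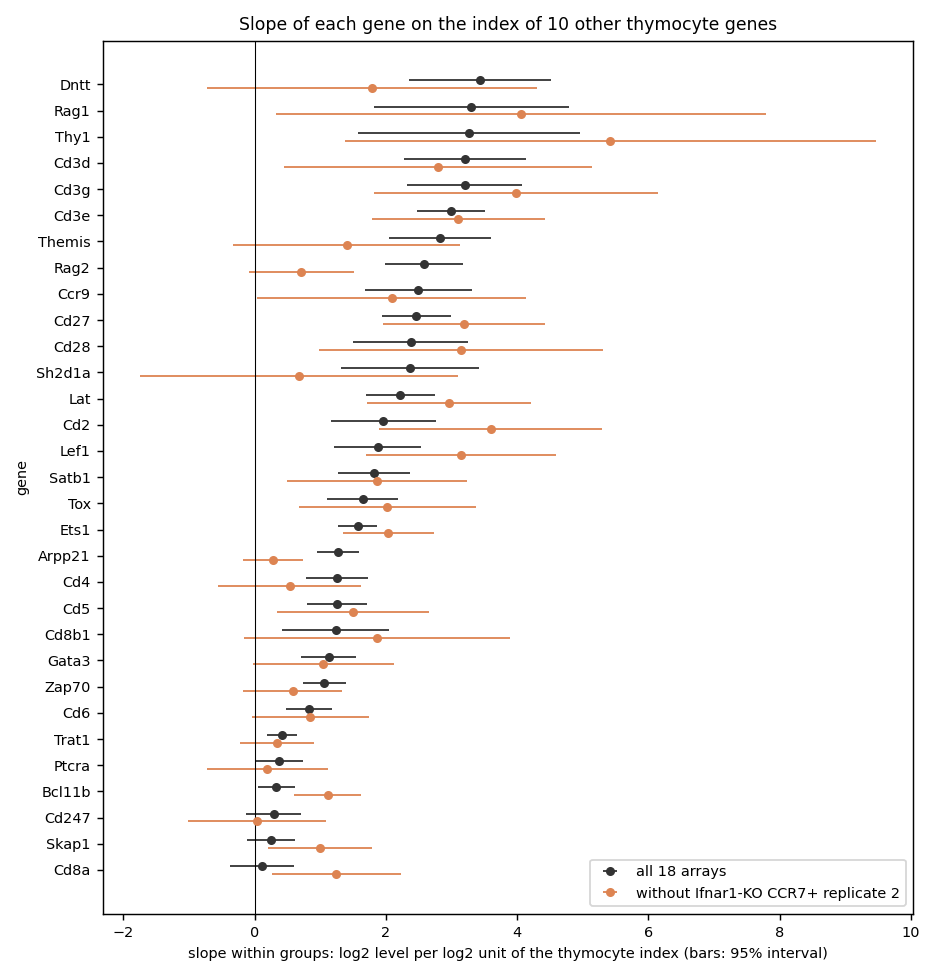
Slope of each of the 31 genes on the index of 10 other T cell genes, within groups, with 95% intervals from limma; dark points use all 18 arrays and orange ones leave out Ifnar1-KO CCR7+ replicate 2. Slopes run from 0.12 for Cd8a to 3.43 for Dntt, and the orange intervals are wider, with all 31 estimates above 0.

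By role, the slope passed for 3 of 3 recombination genes, 3 of 5 receptor chains, 1 of 3 coreceptors, 4 of 6 signalling genes, 5 of 6 transcription factors and 7 of 8 surface and other genes. Dntt had 3.43 ± 0.50 (adjusted p 0.00589), Rag1 3.30 ± 0.69 (0.0420) and Rag2 2.58 ± 0.27 (0.00103). Cd3e had the smallest adjusted p of all genes tested, 0.000192, at 3.0 ± 0.24. Without the array Rag2 had 0.71 and Dntt 1.79, with intervals of -0.09 to 1.51 and -0.73 to 4.31. Cd3e kept 3.10 (1.78 to 4.42) and Rag1 had 4.06 (0.33 to 7.80).

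Ccr9 had 2.5 ± 0.38 (adjusted p 0.00710), so it was higher on arrays with a higher index although lower on most CCR7+ arrays. Without the divergent array its slope was 2.09 (0.04 to 4.13). The other called slopes ran from 0.83 for Cd6 to 3.21 for Cd3d. Without the array, intervals excluded 0 for Lat (2.96, 1.72 to 4.21), Lef1 (3.14, 1.69 to 4.59), Ets1 (2.04, 1.35 to 2.73), Cd2 (3.59, 1.89 to 5.30) and Cd27 (3.18, 1.95 to 4.42), among others. They included 0 for Themis (1.40, -0.32 to 3.12), Sh2d1a (0.68, -1.74 to 3.10), Arpp21 (0.28, -0.17 to 0.74), Zap70 (0.58, -0.17 to 1.33) and Cd4 (0.53, -0.55 to 1.62). These intervals are not adjusted for the number of genes.

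The slope did not pass for 8 genes: Cd8a, Cd8b1, Cd247, Ptcra, Trat1, Skap1, Bcl11b and Thy1. With all arrays Cd8a had the smallest slope, 0.12 ± 0.23 (95% interval -0.37 to 0.61), followed by Skap1 at 0.25 ± 0.17 (-0.12 to 0.62) and Cd247 at 0.29 ± 0.19 (-0.13 to 0.71). Cd8b1 had 1.24 ± 0.38 (0.42 to 2.05, adjusted p 0.138) and Thy1 3.27 ± 0.79 (1.57 to 4.96, adjusted p 0.0693). With the replicate block both were negative, as above, so the data do not settle their slopes. With the divergent array left out, the slope of Cd8a was 1.24 (0.26 to 2.23) and that of Skap1 0.99 (0.20 to 1.78). Cd247 had 0.04 then (-1.01 to 1.08), Cd8b1 1.86 (-0.16 to 3.88), Thy1 5.42 (1.37 to 9.47) and Bcl11b 1.11 (0.61 to 1.62), which had 0.33 with all arrays. For Cd8a and Skap1 the low slope thus rests on the divergent array. Of the 12 genes that rose with maturation in at least 1 background, 9 also had a called slope, and Cd247, Cd8b1 and Skap1 did not. Among the genes with no called rise, 14 had a called slope and 5 did not, so the share was similar.

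Other marker lists were given the same slope test. All 11 XCR1+ DC genes had negative slopes, with a median of -0.69, and Xcr1 passed (-2.18 ± 0.47, adjusted p 0.0469). Without Ifnar1-KO CCR7+ replicate 2, 7 of the 11 were negative and 0 passed. Among 6 NK cell genes Gzma, a granule protease, passed (1.65 ± 0.27, adjusted p 0.0124), and among 6 plasmacytoid DC genes Ly6d did (1.88 ± 0.27, adjusted p 0.00589). The rest of the plasmacytoid DC list did not follow Ly6d: Siglech (-0.44) and Tcf4 (-0.52) had negative slopes. Bst2 (0.07), Cox6a2 (0.32) and Pacsin1 (0.05) had small positive ones. No B cell, macrophage, erythroid, thymic epithelium or CD172a+ DC gene passed, and without that array neither did Gzma or Ly6d.

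Single arrays show that the T cell genes did not always vary as one block. Ifnar1-KO CCR7+ replicate 2 exceeded the mean of replicates 1 and 3 for 30 of 31 genes, by more than 1 for 24 of them (1.39% of all genes) and by a median of 1.82. The gap was largest for Dntt (4.24), Cd3d (3.71), Rag1 (3.54), Themis (3.50), Cd3g (3.42), Cd3e (3.35) and Rag2 (3.34). It was small for Bcl11b (0.19) and Skap1 (0.11) and reversed for Cd8a (-0.13).

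GF CCR7+ replicate 2 had a milder excess over its group, above the other 2 arrays' mean for 25 of 31 genes, with a median of 0.46. Rag1 (1.63), Dntt (1.46), Cd3d (1.21), Lat (1.21) and Themis (1.12) were higher by more than 1. Lef1 (-0.21), Tox (-0.11), Cd5 (-0.02), Cd28 (-0.39), Skap1 (-0.10) and Sh2d1a (-0.87) were lower. The genes in these examples were chosen after their values were seen, and no test was made.

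In CTRL CCR7+ cells the pattern among arrays was another one. Replicate 2 lay below the mean of replicates 1 and 3 for all 31 genes, by a median of 0.48. The gap was largest for Cd28 (1.80), Cd2 (1.69), Ccr9 (1.67), Lef1 (1.57), Cd3d (1.42), Cd3g (1.35), Tox (1.09) and Cd5 (1.01). Rag1 had 0.70, all of it from replicate 1, Dntt 0.27 and Rag2 0.10. Above replicate 2, CTRL replicate 3 was thus higher in Cd2 (1.78), Cd5 (1.30), Cd28 (2.05), Lef1 (1.95) and Tox (1.5) but not in Rag1 (-0.07), while replicate 1 was higher in Rag1 (1.46) as well as in Cd2 (1.61), Cd28 (1.54) and Lef1 (1.20). GF replicate 2 was high in Rag1 and Dntt and not in Cd5, Cd28, Lef1 and Tox. Cd3d was high on all of these arrays.

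**Figure D5:**
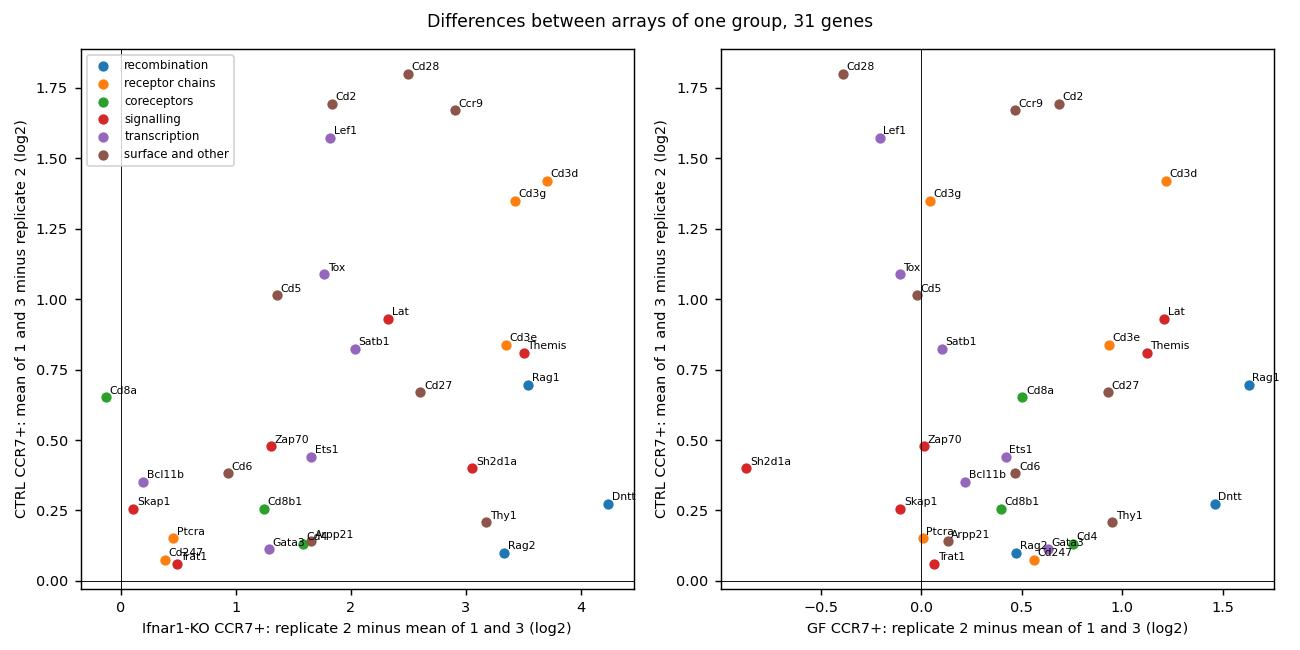
Each point is 1 of the 31 genes, coloured by role. The vertical axis in both panels is CTRL CCR7+ replicates 1 and 3 minus replicate 2 (log2), and the horizontal axis is replicate 2 minus the mean of 1 and 3 in Ifnar1-KO CCR7+ (left) or GF CCR7+ cells (right). Cd28 and Lef1 are high on the vertical axis and below 0 on the right panel's horizontal axis, while Dntt lies far right and low in both panels.

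On CCR7- arrays, a gap above 1 to the other 2 arrays' mean was found on Ifnar1-KO replicate 2 and on no other. There 23 of 31 genes lay above the other 2 arrays' mean, 5 of them by more than 1 (1.23% of all genes): Thy1 (3.83), Rag1 (2.27), Cd3g (1.40), Cd8b1 (1.29) and Cd27 (1.12). Dntt had 0.40 and Cd8a 0.11.

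The thymocyte index was also used as a covariate, to estimate the difference between stages beside the index slope. The index ranges of CCR7- and CCR7+ arrays did not overlap in CTRL (4.21 to 4.34 and 4.53 to 4.91) or GF (4.25 to 4.27 and 4.58 to 4.75). The adjusted changes there thus extend the slope beyond the index values of each stage, and no arrays were compared at an equal index. The number of positive changes among the 31 went from 29 to 19 in CTRL, 18 in Ifnar1-KO and 18 in GF. Cd8b1 stayed called higher, by 1.12 ± 0.36 (adjusted p 0.0369), 2.03 ± 0.38 (0.00149) and 1.52 ± 0.35 (0.00580). Ccr9 became called lower in all 3, with -2.57 ± 0.36 (adjusted p 0.000103), -2.32 ± 0.38 (0.000518) and -2.46 ± 0.35 (0.000131). Rag2, positive without the covariate, was called lower in CTRL (-1.07 ± 0.26, adjusted p 0.00719).

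Lef1 and Satb1 remained called in CTRL (0.87 ± 0.29 and 0.73 ± 0.24), and Cd3g, Cd27 and Skap1 in GF. Cd8a kept its fall in CTRL (-0.78 ± 0.21, adjusted p 0.0162). The slope behind this adjustment comes largely from Ifnar1-KO CCR7+ replicate 2, and the index itself is higher at the mature stage. With both Ifnar1-KO replicate 2 arrays left out as well, a fit chosen after the data were seen, Ccr9 was still called lower in all 3 (-3.24, -3.13 and -3.06). Cd8b1 was then called in Ifnar1-KO (2.64) and GF (1.89) but not in CTRL (1.53, adjusted p 0.149). Lef1 (-0.20) and Satb1 were no longer called in CTRL, and Lef1 had turned in sign.

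The third question was whether interferon receptor loss or the lack of microbes changed these transcripts. None of the 31 was called in Ifnar1-KO minus CTRL or GF minus CTRL, at either stage, by limma. All genes on the array gave 0% and 0.0150% for Ifnar1-KO minus CTRL in CCR7- and CCR7+ cells, and 0.0150% and 0.0301% for GF minus CTRL. At an unadjusted p under 0.05 there were 0 and 2 of the 31 for Ifnar1-KO (7.03% and 2.92% of all genes) and 1 and 1 for GF (6.32% and 5.86%), at or near the background. In CCR7+ cells 24 of 31 differences were positive for Ifnar1-KO, with a median of 0.24. With the divergent array left out, 6 were positive.

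The change with maturation did not differ detectably either: 0 of the 31 passed for Ifnar1-KO or GF against CTRL, as did 0% of all genes. At an unadjusted p under 0.05 there were 1 (Cd8a) and 0, where 4.52% and 3.31% of all genes passed. The median 95% half-width of these differences was 1.34 for the 31 genes, wider than 1 log2 unit on each side. For Rag1 the interval ran from -1.73 to 3.73 in Ifnar1-KO and -1.67 to 3.79 in GF. Several genes had narrower intervals, among them Skap1, -0.55 to 0.34 and -0.42 to 0.47, and Cd8a, 0.13 to 1.24 and -0.19 to 0.91. These were not the narrowest.

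Genes that act downstream of the T cell receptor but are also used by other leukocytes moved in both directions with maturation. Of 23 measured, 6 rose and 8 fell in CTRL, 6 and 7 in Ifnar1-KO and 5 and 7 in GF. The ubiquitin ligase Cblb rose by 2.24 ± 0.10 and the adaptor Nck1 by 1.37 ± 0.16 in CTRL, while the phosphatase Ptpn22 changed by -4.13 ± 0.23 and the adaptor Lcp2 by -2.04 ± 0.19. Their mean level was 6.72 to 7.16 on CCR7- and 6.76 to 6.97 on CCR7+ arrays. Of the 19 that were not in the index, 0 had a called slope on it, 7 had an unadjusted p under 0.05 (16.2% of all genes), and the median slope was -0.30. Of the 10 index genes, Rasgrp1 and Ubash3a rose and Tespa1 fell in CTRL (1.52 ± 0.33, 0.72 ± 0.15 and -1.37 ± 0.33). Rasgrp1 and Ubash3a also rose in Ifnar1-KO, and Rasgrp1 in GF.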

How the data were processed

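Expression was measured on 18 arrays of 6 groups. Per the labels, nanogram amounts of RNA were copied with a NuGEN Ovation whole-transcript kit. The authors deposited log2 values, made by RMA with the oligo tool per the submitters' processing notes, which give no version. Arrays have no read depth; their number limits the precision, and 95% intervals of maturation changes reached a median of 0.95 to either side for the 31 genes.

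Of 35556 probesets, 21789 with 1 gene symbol were kept (1621 had several, 12146 none), the one with the highest mean per gene, which gave 19938 genes. limma 3.58.1 in R 4.3.3 (statmod 1.5.0) was fitted with a mean for each group, leaving 12 residual degrees of freedom, then eBayes and Benjamini-Hochberg adjustment over all genes, and tested on simulated data. Comparisons were maturation in each background, its difference from CTRL, and the backgrounds within a stage. The slope fit left the index genes out. Promoter windows came from a RefSeq table. Figures used matplotlib 3.10.9.

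The genes, lists and index were chosen with earlier results of these data known. Any of the 31 genes could be named. All arrays are given for genes called in a maturation comparison, and CCR7- ranges for others. In the CTRL replicate 2 pair the code letters are inverted; the stated stage was used. Pairing by number was checked through correlations of deviations across stages: 0.188, 0.147 and 0.100 in CTRL, 0.284, 0.321 and 0.236 in Ifnar1-KO, which met the rule of every pair over 0.1, and 0.267, 0.00354 and 0.0296 in GF, which did not. Alternatives were an intensity trend, median centring, genes at or above the median level, the mean of all probesets, only the groups compared, the replicate block, the trailing r in array codes (meaning not given), the index as covariate, other indices, and leaving arrays out.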

Additional observations from a re-analysis of the deposited data

How the results depend on the processing

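The calls of Cd8a and Cd8b1 in CTRL and of Cd8b1 in Ifnar1-KO and GF held in every fit below except Cd8b1 in CTRL with the index as covariate and both Ifnar1-KO replicate 2 arrays left out, a fit added after the data were seen; the others were each lost in at least 1. The counts of called genes within 1.5 times the ones reported are left out here. Shares of all genes are given above for the block in CTRL and Ifnar1-KO and without the divergent array. They are not given for the other fits, so those counts do not show how far all genes moved. Fitting only the groups compared gave 22 in CTRL, 1 in Ifnar1-KO and 14 in GF. With the replicate block, counts were 17 (CTRL), 13 (Ifnar1-KO), 11 (GF, whose pairs did not meet the rule) and 0 for the slope. Without both Ifnar1-KO replicate 2 arrays they were 23 in CTRL, 15 in GF and 0 for the slope. In Ifnar1-KO the intensity trend gave 9, genes at or above the median level 9, and the index as covariate 2. With that covariate and both arrays left out, 2 were called in CTRL and 2 in Ifnar1-KO.

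Leaving out each array in turn gave 3 (without CTRL CCR7+ replicate 3) to 21 genes (without Ifnar1-KO CCR7+ replicate 2) in CTRL, 1 (without Ifnar1-KO CCR7- replicate 1) to 15 (without Ifnar1-KO CCR7+ replicate 1) in Ifnar1-KO, 2 to 14 (without Ifnar1-KO CCR7+ replicate 2) in GF and 0 to 24 for the slope. GF had 2 without GF CCR7- replicate 1 or 2 or GF CCR7+ replicate 2, and 3 without GF CCR7- or CCR7+ replicate 3. CTRL had 5 when replicate 1 of either CTRL stage was left out, and 4 without CTRL CCR7- replicate 2. Ifnar1-KO had 2 without CCR7- replicate 3 or CCR7+ replicate 2 and 11 without CCR7+ replicate 3; the slope had 14 without Ifnar1-KO CCR7+ replicate 1. The comparisons between backgrounds gave 0 to 0.

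Sign changes are listed here only for genes called in the reported fit or in the alternative. An index made from other signalling genes, which many leukocytes use, called 0 slopes. All 23 slopes called on the thymocyte index turned in sign: Rag1 -3.75, Rag2 -2.03, Dntt -2.38, Cd3d -3.04, Cd3e -2.65, Cd3g -3.20, Cd4 -0.74, Zap70 -0.78, Lat -1.80, Themis -1.66, Sh2d1a -1.92, Lef1 -1.88, Gata3 -0.57, Satb1 -1.57, Tox -0.91, Ets1 -1.50, Cd2 -1.61, Cd5 -0.70, Cd6 -0.52, Cd27 -1.95, Cd28 -1.41, Ccr9 -1.41 and Arpp21 -0.92. With the index as covariate Rag2 turned in CTRL (-1.07), where its readings show no fall. Several genes without a call in either fit also turned there, such as Dntt (-0.92) and Arpp21 (-0.35), and are not listed. With both Ifnar1-KO replicate 2 arrays also left out, Lat (-0.089), Lef1 (-0.20), Tox (-0.37) and Cd2 (-0.39) turned in CTRL and Cd5 (-0.90) in GF. The cause was not tested.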
